A study of Mus musculus with 67 samples.

Results

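The connexin genes examined here are 8 members of the gap junction family, Gja1, Gja3, Gja4, Gja5, Gjb2, Gjb5, Gjb6 and Gjc1, out of 46983 gene IDs in the RNA-seq tables. The tables list 20 connexin genes in all, so 12 connexins were not members. The members were chosen by name with their TPM in these same libraries known, TPM being a transcript level scaled for gene length and library size. Their levels and differences are therefore a description, and the counts of genes past a threshold are read against no hypothesis. RNA came from mouse forelimb buds in 14 pooled libraries of 4 groups. The pre-HH groups, taken before the onset of Hedgehog (HH) signaling, were whole buds at E9.25 (21–23 somites) with about 4 bud pairs per pool, from WT embryos (n = 3) and Gli3-/- embryos (n = 4). The post-HH groups were the anterior portion of buds at E10.5 (32–35 somites) with 2 bud pairs per pool by the labels, from WT (n = 4) and Gli3-/- embryos (n = 3). Mutant embryos were homozygous for the Gli3Xt-J deletion allele, which is present in every cell of the embryo, and the background was Swiss Webster. Stage and the part of the bud that was dissected changed together and cannot be told apart. The labels do not tie pools to litters, so p-values here measure only the spread between these pools, which may in part be technical.

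Connexins are membrane proteins that assemble into hexameric hemichannels, and hemichannels of adjoining cells dock to form gap junctions that pass ions and small metabolites. Most cell types make several connexins, and the mix of subunits sets which molecules pass. GJA1 (connexin 43) is the broadly expressed connexin of mesenchyme and of the apical ectodermal ridge, GJC1 (connexin 45) is known from early heart and vessels, GJA4 and GJA5 (connexins 37 and 40) are connexins of endothelium, GJB2 and GJB6 (connexins 26 and 30) are connexins of epithelia and cochlea, GJB5 (connexin 31.1) is a connexin of skin and placenta, and GJA3 (connexin 46) is best known from lens.

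Each library held an estimated 38.1 to 56.8 M reads, so a TPM of 1 stood for 20.7 to 29.3 reads per kilobase of transcript. Gli3 itself was checked first. Its ratio of coverage to FPKM, set against the ratio of most genes in the library, was 0.338 to 0.342 in the 7 WT libraries and 0.122 to 0.139 in the 7 Gli3-/- libraries, so the labels of all 14 libraries matched the state of the gene. Gli3 TPM was 15.8 in E9.25 WT replicate 2 and 44.2 and 44.6 in the other WT replicates of that stage, and 13276 genes reached a TPM of 1 in this library against 14162 to 15816 in the others. Limb mesenchyme markers such as Prrx1 and Tbx5 summed to 619 to 973 TPM per library. Among markers of tissue that a dissection could include, 2 of 5 heart muscle genes (Myh6 and Nkx2-5), 3 of 6 neural crest and glia genes (Sox10 and Foxd3 among them) and 3 of 4 neural genes (Sox2, Elavl3 and Sox1) stayed under a TPM of 1 in every library.

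Gja1 and Gjc1 made up most connexin RNA in every library. Together they took 88.2 to 93.2% of the summed TPM of the 20 connexins, with Gja1 alone at 62.4 to 77.9% and Gjc1 at 15.4 to 28.0%. The summed level of all connexins was 234 to 356 TPM in E9.25 WT, 265 to 327 in E9.25 Gli3-/-, 377 to 424 in E10.5 WT and 403 to 408 in the E10.5 mutant. The order below these 2 genes changed with stage. In E9.25 WT, Gja4 and Gjb5 came next and their ranges overlapped, Gja5 was lower, and Gja3, Gjb2 and Gjb6 lay at the floor. In E10.5 WT, Gjb2 stood at the third rank, above every library of Gja5 and Gja4, which overlapped each other, and Gjb6, Gja3 and Gjb5 followed with overlapping ranges. In E10.5 Gli3-/-, Gjb2 was below the means of Gja5 and Gja4, with a range that overlapped those of Gja5, Gja4 and Gja3, and Gjb6 was last in every library.

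**Figure D1:**
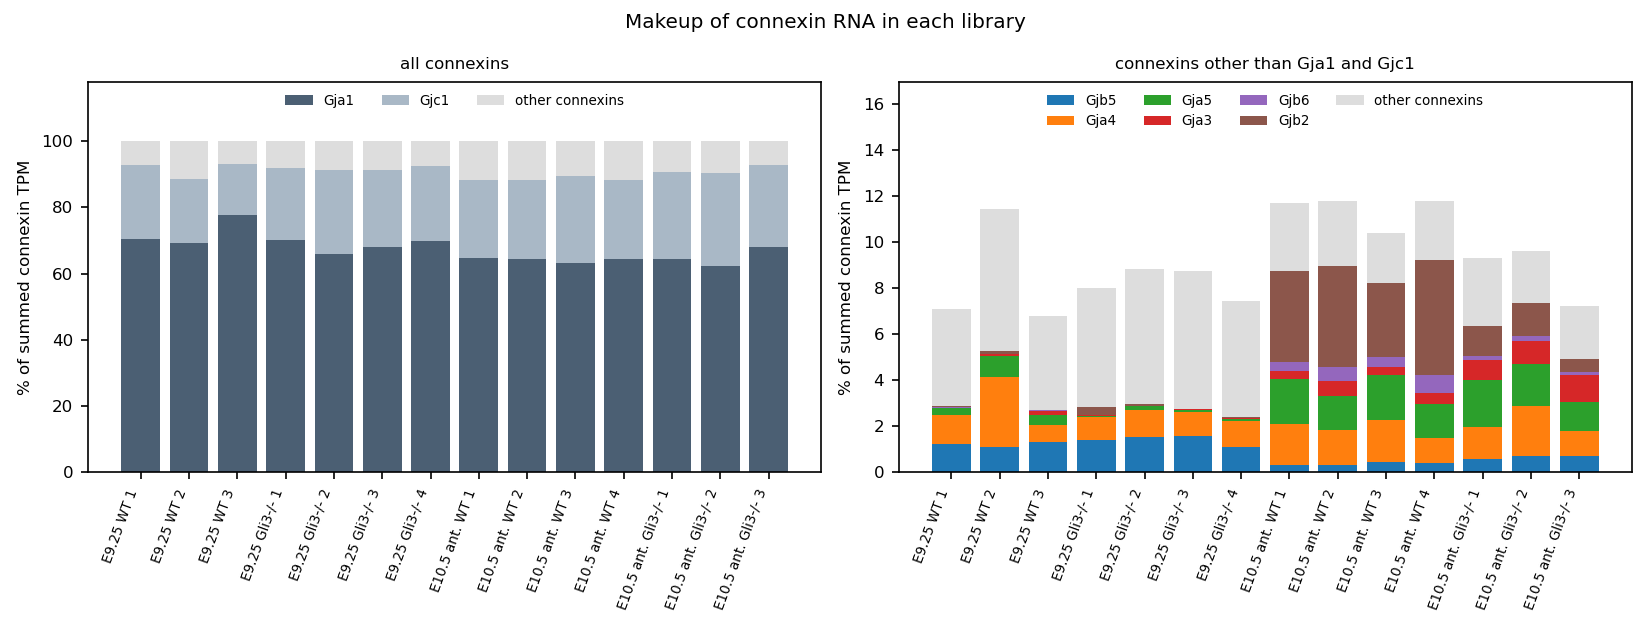
Share of the summed TPM of 20 connexin genes held by the members in the 14 libraries (x axis: library; y axis: % of summed connexin TPM; bars: 1 library each; light gray: the other connexins summed). Gja1 and Gjc1 hold 88.2 to 93.2% (left), and among the remainder (right) Gjb2 takes 3.21 to 4.99% of the total in E10.5 anterior WT, 0.554 to 1.41% in E10.5 anterior Gli3-/- and at most 0.352% at E9.25.

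The members fall on 5 chromosomes in the mm10 coordinates of the tables, and 5 of the 8 lie in clusters. Gja3 (chr14:57035608-57058030), Gjb2 (chr14:57098600-57104702) and Gjb6 (chr14:57123303-57133611) share the minus strand over 98.0 kb, and Gm4491, at a TPM of at most 0.0327, lies between Gjb2 and Gjb6. Gja4 (chr4:127311421-127314039) and Gjb5 (chr4:127354809-127358181) lie on the minus strand within 46.8 kb. Gja1 (chr10:56377300-56390419, plus strand), Gjc1 (chr11:102799579-102819700, minus strand) and Gja5 (chr3:96904693-97077416, plus strand) have no connexin member beside them. The annotated span of Gja5 overlaps Gpr89 on the other strand, which reached a TPM of 20.6. The sources used here do not say whether reads were assigned by strand, so reads of Gja5 and Gpr89 cannot be fully told apart.

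The sequence upstream of the start is shown for the 4 members whose E10.5 levels did not overlap between genotypes. Each line is the 250 bases before the RefSeq start on GRCm38.p6, on the strand of the gene, at chr14:57058031-57058280 for Gja3 (the first of its RefSeq starts), chr14:57104703-57104952 for Gjb2, chr14:57133612-57133861 for Gjb6 and chr4:127358165-127358414 for Gjb5. Capitals mark every CG dinucleotide.
Gja3: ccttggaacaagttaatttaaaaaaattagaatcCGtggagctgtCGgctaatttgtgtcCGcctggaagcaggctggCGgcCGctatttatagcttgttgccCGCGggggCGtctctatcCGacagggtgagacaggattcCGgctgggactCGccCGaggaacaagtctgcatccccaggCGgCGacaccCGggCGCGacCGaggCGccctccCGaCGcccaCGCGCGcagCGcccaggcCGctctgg
Gjb2: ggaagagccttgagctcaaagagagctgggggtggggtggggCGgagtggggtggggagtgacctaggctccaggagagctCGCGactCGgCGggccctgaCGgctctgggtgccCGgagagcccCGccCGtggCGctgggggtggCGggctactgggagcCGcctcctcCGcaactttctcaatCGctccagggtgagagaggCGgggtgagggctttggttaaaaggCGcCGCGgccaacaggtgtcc
Gjb6: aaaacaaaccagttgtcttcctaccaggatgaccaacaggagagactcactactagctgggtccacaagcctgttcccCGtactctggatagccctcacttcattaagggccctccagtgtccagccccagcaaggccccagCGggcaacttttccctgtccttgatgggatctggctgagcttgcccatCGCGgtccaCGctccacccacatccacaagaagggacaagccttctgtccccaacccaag
Gjb5: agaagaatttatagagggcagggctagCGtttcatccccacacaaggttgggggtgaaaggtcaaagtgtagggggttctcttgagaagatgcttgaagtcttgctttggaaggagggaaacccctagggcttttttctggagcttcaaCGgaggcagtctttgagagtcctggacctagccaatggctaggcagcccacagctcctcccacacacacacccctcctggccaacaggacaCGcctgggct
Gja3 and Gjb2 started in CG-rich sequence, with 26 and 18 CG dinucleotides, more than 90.4% and 78.3% of the 32851 RefSeq windows of this length. Gjb6 held 5 and Gjb5 held 3, against a median of 6. The GC box GGGCGG, read on both strands, began 211 and 126 bases before the start of Gjb2 and was absent from the other 3 windows shown. Among the members not shown, it began 79 bases before the start of Gja4 and 17 before that of Gja5. Of all windows 32.7% held it. The letters TATAAA, read on both strands, began 163 bases before the start of Gja3 and 243 before that of Gjb5, and 12.4% of all windows held them. RefSeq gave a window for 7 of the 8 members, all but Gjc1. No member window held GACCACCCA, the consensus that GLI factors bind, or its inner letters ACCACCC on either strand, while 0.225% and 3.92% of all windows did, the first motif containing the second.

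Gjb2 had the largest difference between genotypes among the members at E10.5. In E10.5 anterior WT its TPM was 15.5, 17.2, 12.1 and 21.2, and in E10.5 anterior Gli3-/- it was 5.35, 5.68 and 2.26. The mutant libraries all lay below the WT libraries. WT libraries averaged 16.5 ± 3.77 (SD, n = 4) and mutant libraries 4.43 ± 1.89 (SD, n = 3), 3.72 times less, a difference of −1.73 ± 0.26 (SE) on log2(TPM + 1) with a 95% interval of −2.32 to −1.15. The lowest value was that of Gli3-/- replicate 3, the library with the most blood marker RNA, and without it the difference was −1.40. At E9.25 the TPM of Gjb2 was 0.129, 0.206 and 0.0963 in WT and 0.932, 0.261, 0.0867 and 0.143 in Gli3-/-, and the groups overlapped. These values stand for 2.52 to 20.9 estimated reads per kilobase, near the floor of detection. The genotype difference at E10.5 less that at E9.25 was −1.94 ± 0.37 (SE) on the log2 scale.

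Gjb6, the neighbor of Gjb2, followed it at a lower level. TPM in E10.5 anterior WT was 1.46, 2.25, 1.67 and 3.44, and in E10.5 anterior Gli3-/- it was 0.781, 0.891 and 0.452. The groups again did not overlap, the means were 2.20 ± 0.886 (SD, n = 4) and 0.708 ± 0.229 (SD, n = 3), and the log2 difference was −0.88 ± 0.22 (SE). At E9.25 Gjb6 was listed at 0 in 4 of 7 libraries and reached at most 0.0734 TPM in the others. The level of Gjb6 per 100 of Gjb2 had a median of 13.4 in E10.5 WT and 15.7 in the E10.5 mutant, with ranges that overlapped. The library lowest in Gjb2 within each E10.5 genotype was not always the lowest in Gjb6, being WT replicate 3 for Gjb2 and WT replicate 1 for Gjb6.

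Gja3, at the other end of the same cluster, differed in the opposite direction. TPM was 1.36, 2.63, 1.40 and 1.94 in E10.5 anterior WT and 3.51, 4.09 and 4.83 in E10.5 anterior Gli3-/-. Every mutant library was above every WT library, with means of 1.83 ± 0.594 (SD, n = 4) and 4.14 ± 0.666 (SD, n = 3), 2.26 times higher in the mutant, and a log2 difference of 0.88 ± 0.18 (SE). At E9.25 Gja3 was listed at 0 in WT replicate 1 and Gli3-/- replicate 2 and ranged up to 0.731 TPM elsewhere, or 19.1 estimated reads per kilobase. The ratio of Gja3 to Gjb2 TPM was 0.0878 to 0.153 in E10.5 WT and 0.655 to 2.14 in the E10.5 mutant. The flanking genes of this cluster overlapped between the genotypes at E10.5, the difference being −0.05 ± 0.12 (SE) for Zmym2 and −0.27 ± 0.16 (SE) for Cryl1.

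**Figure D2:**
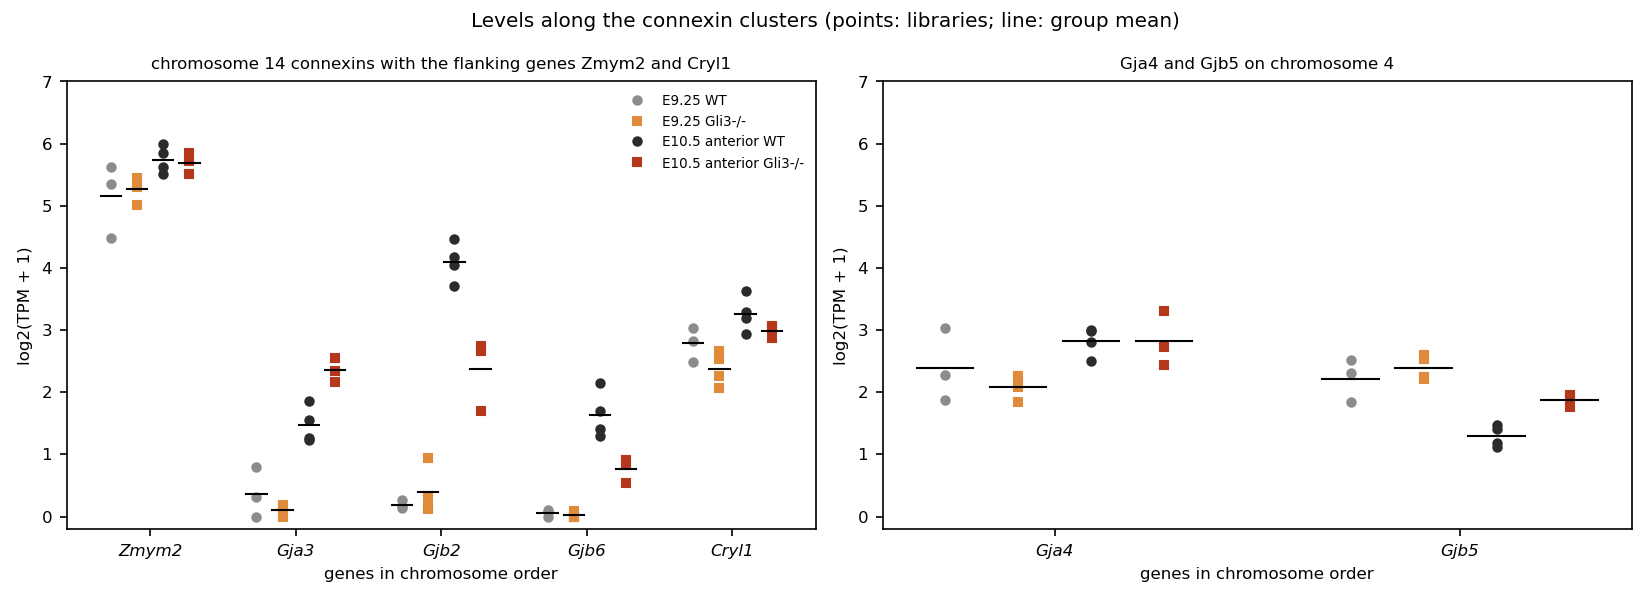
Levels of the chromosome 14 connexins with their flanking genes (left) and of Gja4 and Gjb5 on chromosome 4 (right), in chromosome order (y axis: log2(TPM + 1); points: libraries; lines: group means). At E10.5 Gja3 is higher and Gjb2 and Gjb6 are lower in Gli3-/- than in WT with no overlap, and on chromosome 4 the groups are apart for Gjb5 and not for Gja4.

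Gjb5, on chromosome 4, was the fourth member with separate groups at E10.5. TPM was 1.28, 1.19, 1.64 and 1.76 in anterior WT and 2.40, 2.81 and 2.88 in anterior Gli3-/-, a log2 difference of 0.59 ± 0.14 (SE) and 1.84 times the mean. At E9.25 it was 3.94, 2.57 and 4.71 in WT and 3.77, 5.03, 4.78 and 3.62 in Gli3-/-, with overlap. Gjb5 was the member that was lower at E10.5 than at E9.25. The drop was −0.92 ± 0.20 (SE) in WT and −0.51 ± 0.16 (SE) in Gli3-/-, and the test of the difference between these drops, 0.41 ± 0.25 (SE), did not pass.

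Of the endothelial connexins, Gja5 was apart between genotypes at the earlier stage. Its TPM was 1.02, 2.13 and 1.45 in WT at E9.25 and 0.173, 0.665, 0.222 and 0.397 in E9.25 Gli3-/-. The mutant libraries were all below the WT libraries, with a mean 4.21 times lower and a log2 difference of −0.88 ± 0.23 (SE), or −1.11 relative to the median gene, whose own difference was +0.23. Gja5 did not pass the threshold over all genes at E9.25, except in a single model of all 14 libraries. The size depended on the measure, from −1.88 to −0.12 over the other settings, and the coverage listed for Gja5 was 0.110 to 0.154 of that expected from its FPKM. At E10.5 it was 7.60, 5.67, 7.38 and 6.21 in WT and 8.39, 7.25 and 5.21 in Gli3-/-, with a difference of 0.03 ± 0.16 (SE) and a 95% interval of −0.33 to 0.39. Mean TPM was 0.364 and 6.95 in the mutant at the earlier and later stage, and 1.53 and 6.71 in WT. The interaction of stage and genotype for Gja5 was 0.91 ± 0.28 (SE) and did not pass.

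Gja4, the other endothelial connexin, overlapped between genotypes at both stages. Its TPM was 3.85, 7.16 and 2.66 in WT at E9.25 and 2.61, 3.81, 3.24 and 3.50 in E9.25 Gli3-/-. At E10.5 it was 7.05, 6.01, 6.88 and 4.67 in WT and 5.62, 8.87 and 4.42 in Gli3-/-. The highest E9.25 value belonged to WT replicate 2, which was also the highest of its group in Gja5. The ratio of Gja5 to Gja4 was 0.266 to 0.544 in E9.25 WT, 0.0664 to 0.174 in E9.25 Gli3-/- and 0.816 to 1.49 in the 7 E10.5 libraries.

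The 2 abundant members varied little between genotypes. Gja1 TPM was 220.4, 162 and 277 in E9.25 WT, 186, 216, 208 and 224 in the mutant of that stage, 253, 250.4, 238 and 273 in E10.5 WT and 263, 251 and 278 in the E10.5 mutant. The genotypes overlapped at both stages, and the 7 E10.5 libraries lay above the 4 E9.25 mutant libraries and within or near the range of E9.25 WT. The difference between genotypes was −0.04 ± 0.17 (SE) at E9.25 and 0.06 ± 0.07 (SE) at E10.5, with a 95% interval of −0.10 to 0.21 at E10.5. Gjc1 TPM was 70.7, 45.3 and 54.6 in E9.25 WT, 57.7, 82.5, 70.8 and 72.8 in the mutant of that stage, 92.6, 92.4, 99.5 and 101 in E10.5 WT and 107, 113 and 100.2 in the E10.5 mutant. The difference between genotypes in Gjc1 was 0.33 ± 0.18 (SE) at E9.25 and 0.14 ± 0.07 (SE) at E10.5. Every E10.5 library was above every E9.25 library, as for 53.5% of genes tested in WT and 35.7% in Gli3-/- in either direction, and Gjc1 was 0.361 to 0.449 of Gja1 at E10.5 against 0.197 to 0.382 at E9.25. In both genes the E10.5 libraries were closer to each other, the coefficient of variation of Gja1 being 26.1% in E9.25 WT and 5.73% in E10.5 WT.

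**Figure D3:**
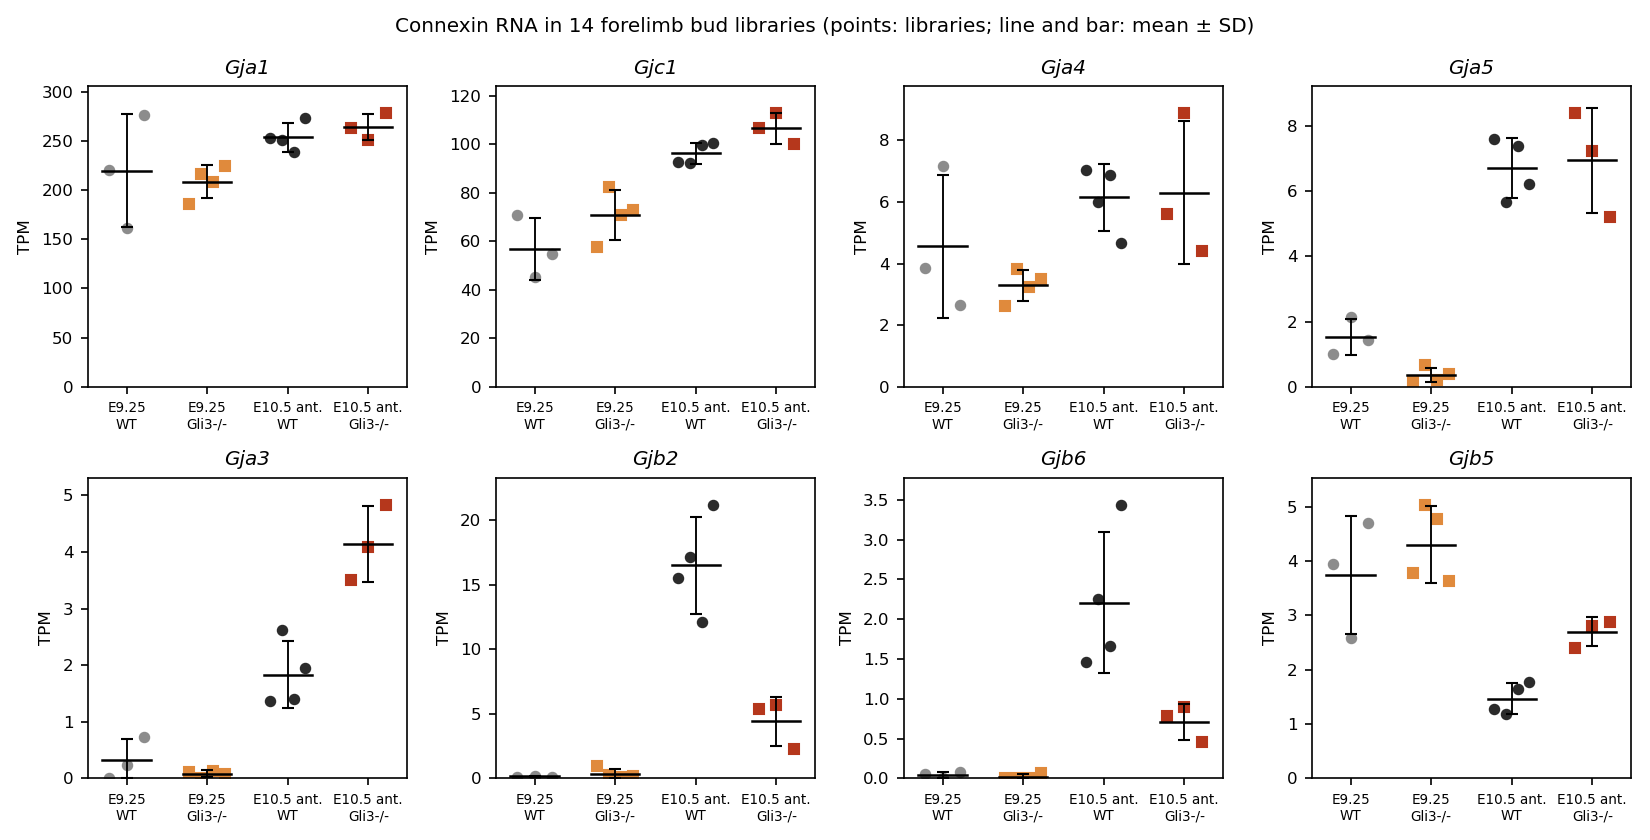
TPM of the 8 connexin genes in the 4 groups (x axis: group; y axis: TPM on a linear scale from 0; points: libraries; lines and bars: mean ± SD, cut at 0). Gjb2 and Gjb6 are highest in E10.5 anterior WT, Gja3 in E10.5 anterior Gli3-/-, Gjb5 at E9.25, and Gja1 and Gjc1 differ little between genotypes.

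Over all members and comparisons, the fits were read on the log2(TPM + 1) scale with limma and adjusted p-values over all genes tested, a scale that understates the change of genes near 0. At E9.25, 5 of the 8 members passed the filter of a TPM of at least 1 in 3 libraries, and 0 passed the threshold of an adjusted p under 0.05, where 0.136% of 14760 genes did. At an unadjusted p under 0.05 there was 1 of the 5, Gja5, beside 22.0% of the genes tested. One member, Gja5, had groups that did not overlap, against 13.3% of the genes tested, or 3.36% lower, but Gja5 was under a TPM of 1 in every mutant library and passed the filter through WT alone, so nothing is read from this count. At E10.5 all 8 passed the filter and 3 passed the threshold (Gjb2 lower, Gja3 and Gjb5 higher), where 4.77% of 15654 genes did, 1.84% higher and 2.93% lower. Groups did not overlap for 4 members, against 19.3% of genes, 7.87% higher and 11.5% lower, and of these Gjb6 passed the filter through its WT libraries alone. Leaving out 1 library at a time kept the call of Gjb2 in 7 of 7 fits (−1.92 to −1.40), that of Gja3 in 2 of 7 (0.78 to 1.00, kept without WT replicate 2 or Gli3-/- replicate 1) and that of Gjb5 in 0 of 7 (0.53 to 0.65). Gjb5 fell just inside the threshold and Gjb6 just outside it, with adjusted p-values from limma of 0.0486 and 0.0527. The median difference over the members was 0.04 and that of all genes −0.02. In the interaction of stage and genotype 1 member, Gjb2, passed with a negative sign, where 2.13% of 16368 genes passed, 1.65% negative. Gjb2 was under a TPM of 1 in every E9.25 library and passed the filter through the E10.5 libraries. At that floor the scale leaves little room for a genotype difference at E9.25, so nothing is read from this count. The genotype and stage comparisons share libraries, so these counts are not independent of each other.

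Between stages Gja5 and Gjc1 rose in both genotypes, with Gja3 and Gjb2 going from under a TPM of 1 to above it, and Gjb5 fell. In WT, 6 of 8 members passed, 5 higher (Gjb2, Gja5, Gjb6, Gja3 and Gjc1) and 1 lower (Gjb5), where 48.7% of 15444 genes passed, 38.1% higher and 10.6% lower. Gjb2, Gjb6 and Gja3 were under a TPM of 1 in every E9.25 WT library and passed the filter through the E10.5 libraries where they were high, which fixed their direction, so they do not count as support. Of the 5 other members 3 passed, 2 of them higher. With median-of-ratios size factors the genes that passed split into 3172 higher and 3289 lower, against 5885 and 1635 here. The differences were 3.91 ± 0.19 (SE) for Gjb2, 1.62 ± 0.19 (SE) for Gja5, 1.58 ± 0.22 (SE) for Gjb6, 1.11 ± 0.24 (SE) for Gja3 and 0.77 ± 0.14 (SE) for Gjc1. The median gene differed by 0.34, so the rise of Gjc1 was 0.43 relative to it and that of Gjb2 was 3.57. Gja4, at 0.43 ± 0.27 (SE), and Gja1, at 0.24 ± 0.16 (SE), did not pass, but Gja4 passed without E9.25 WT replicate 2 and Gja1 without E9.25 WT replicate 3, and Gja1 was at −0.10 with median-of-ratios size factors. In Gli3-/-, 7 members passed the filter and all 7 passed the threshold, 6 higher and Gjb5 lower, where 25.0% of 15434 genes passed, 15.8% higher and 9.17% lower, and the median gene differed by 0.06. Here Gja3, Gja5 and Gjb2 were under a TPM of 1 in all 4 E9.25 libraries and entered through the E10.5 libraries alone, and the 4 other members tested passed, 3 of them higher. The differences were 2.54 ± 0.20 (SE) for Gja5, 2.24 ± 0.16 (SE) for Gja3, 1.97 ± 0.29 (SE) for Gjb2, 0.73 ± 0.21 (SE) for Gja4, 0.59 ± 0.13 (SE) for Gjc1 and 0.34 ± 0.10 (SE) for Gja1. Those of Gja1, Gja4 and Gjb5 each lost the call in 5 of 7 fits that left out 1 library. Gjb6 was left out of this fit by the filter, its E10.5 mutant values all being under a TPM of 1.

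**Figure D4:**
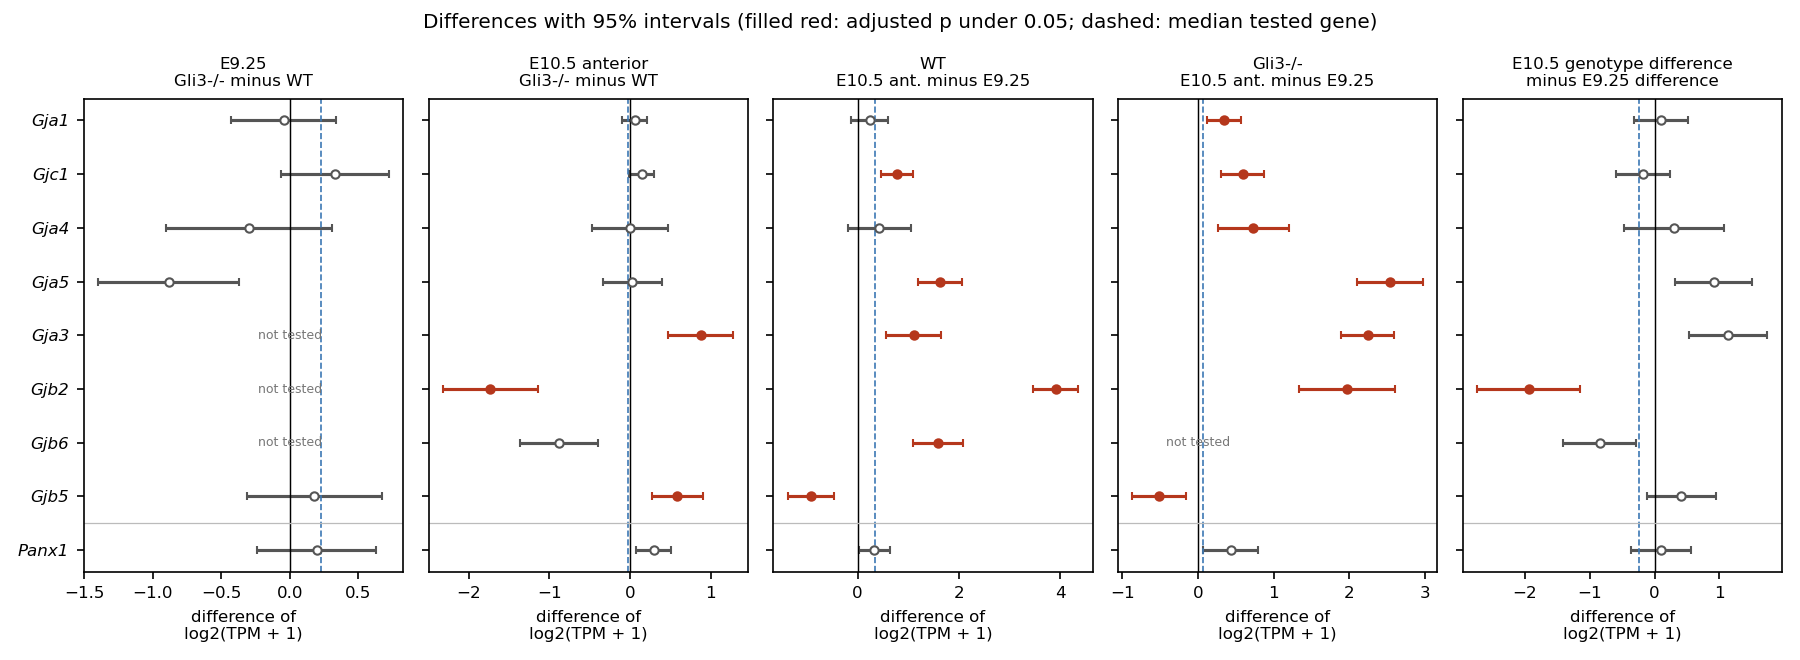
Differences of log2(TPM + 1) with 95% intervals for the 8 members (above the gray line) and for Panx1 (below it) in 5 comparisons (x axis: difference, on a scale of its own in each panel; filled red points: adjusted p under 0.05 in limma; dashed line: the median tested gene). Gjb2 has the largest genotype difference at E10.5, −1.73, and the largest stage difference in WT, 3.91.

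Of the 12 connexins that were not members, 10 stayed under a TPM of 1 in every library, the highest of these values being 0.453 for Gjb1, and Gjc3 was listed at 0 in all 14 libraries. Among pannexins, which form related channels that do not dock, Panx1 was at 22.2 to 26.7 TPM in E10.5 WT and 27.4 to 33.2 in the E10.5 mutant, with no overlap but no passing difference (0.29 ± 0.10 SE, limma adjusted p = 0.128), Panx2 stayed at or under 0.417 TPM and Panx3 was listed at 0.

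Genes whose products scaffold, traffic or modify connexins were examined as a list of 20, among them Tjp1 (a scaffold that binds the connexin tail), Cdh2 and Ctnnb1 (adherens junctions), Cav1 and Src. All 20 passed the filter and 0 passed the threshold in either genotype comparison by limma, with 12 at an unadjusted p under 0.05 at E9.25 and 4 at E10.5, beside 22.0% and 19.6% of all genes tested. Their median difference was 0.45 at E9.25, where that of all genes was 0.23, and 0.01 at E10.5. From E9.25 to E10.5 in WT, 11 of 20 passed the threshold as higher and 0 as lower, where 38.1% and 10.6% of all genes tested did. By sign alone, 18 were higher and 2 lower. In Gli3-/- 4 passed as higher and 3 as lower, where 15.8% and 9.17% of all genes tested did, and by sign 9 were higher and 11 lower. Ezr, a linker of membrane proteins to actin, was the 1 partner past the threshold in the interaction (−1.58, limma adjusted p = 0.0204), where 2.13% of all genes tested passed. It was chosen for naming after its value was seen.

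Because the tissue was whole or anterior buds, fewer cells of a type and less RNA per cell cannot be told apart. Some members were set beside markers of cell types, but which cells held their RNA was not measured. The 15 ectoderm markers, among them Epcam, Cdh1, Trp63 and Krt5, summed to 274 to 405 TPM in E10.5 WT and 290 to 364 in the E10.5 mutant, and 0 of 15 passed in limma, with 8 at an unadjusted p under 0.05, beside 19.6% of all genes tested. Although the sums overlapped, 11 of the 15 had a negative difference, with a median of −0.26 where that of all genes was −0.02, while Krt5 averaged 44.4 TPM in WT and 62.3 in the mutant, 0.51 higher without passing. Per 100 TPM of these markers Gjb2 was 4.13, 4.71, 4.42 and 5.23 in E10.5 WT and 1.47, 1.96 and 0.670 in the E10.5 mutant, a mean 3.38 times lower, beside 3.72 times lower for TPM alone. For Gjb6 the mean per 100 TPM was 2.82 times lower. The 7 apical ridge markers were higher in sum in the mutant at E10.5, at 94.8 to 108 TPM in WT and 165 to 214 in Gli3-/-. Of the 7, 4 passed, where 4.77% of all genes tested did. Fgf8 was higher by 1.36, Fgf4 by 2.08 and Fgf17 by 0.88, and Dlx5 was lower by 0.69 (limma adjusted p = 0.000501, 0.00193, 0.0289 and 0.0122). With 1 library left out, the calls of Fgf8 and Fgf4 were kept in 7 of 7 fits and that of Dlx5 in 6 of 7. Fgf17 sat at the limit of the filter and could be fitted in just 4 of these 7. Its call was kept in 3 of the 4 and in 5 of 8 other settings, so it does not count as support. In E10.5 WT, 1 of the 7 ridge markers was under a TPM of 1 in every library. Per 100 TPM of ridge markers Gja3 was 1.30 to 2.77 in E10.5 WT and 2.12 to 2.26 in the E10.5 mutant, with overlap, and the part of the ridge in the Gja3 difference was not tested. Of the 7 limb mesenchyme markers 5 passed at E10.5, where 4.77% of all genes tested did. Hand2 was higher by 1.90 and Msx2, Msx1, Twist1 and Prrx1 were lower by 2.25, 0.86, 0.65 and 0.56 (limma adjusted p = 0.000544, 7.4e-05, 0.0027, 0.00161 and 0.0113).

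The 11 endothelial markers summed to 123 to 199 TPM in E9.25 WT and 213 to 318 in the E9.25 mutant, all mutant libraries above all WT libraries, and 0 of 11 passed in limma, with 7 at an unadjusted p under 0.05, beside 22.0% of all genes tested. Per 100 TPM of endothelial markers Gja5 was 0.518 to 1.18 in E9.25 WT and 0.0812 to 0.209 in the E9.25 mutant, a mean 6.72 times lower, and at E10.5 it was 3.76 to 4.23 in WT and 3.55 to 4.63 in Gli3-/-. Of the 5 arterial markers, Efnb2 was lower in E10.5 Gli3-/- by 0.71 (limma adjusted p = 0.0367), a call kept in 2 of 7 fits that left out 1 library and 5 of 9 other settings, and 0 passed at E9.25, adjusted or unadjusted. At E9.25 the 5 flank mesoderm markers summed to 12.5 to 30.8 TPM in WT and 57.7 to 133 in Gli3-/-. Of these, 3 passed, where 0.136% of all genes tested did. Foxf1, Gata4 and Osr1 were higher by 3.68, 2.87 and 2.09 (limma adjusted p = 0.0125, 0.0128 and 0.00636). The calls were kept in 4, 4 and 6 of 7 fits that left out 1 library. The part of flank tissue in the Gja5 difference was not tested. Of the 4 muscle progenitor markers, Met was lower in E10.5 Gli3-/- by 0.57 (limma adjusted p = 0.0251), a call kept in 2 of 7 fits that left out 1 library and 6 of 9 other settings. Efnb2 and Met were each the 1 gene of their list to pass at E10.5, where 4.77% of all genes tested did. Some markers were lower beside Gja5 in the E9.25 mutant libraries, and were chosen for naming after their values were seen. Their lists went both ways at E9.25. Of the muscle progenitor markers tested, 1 was lower and 1 higher (by 0.48). Of the ridge markers tested, 3 were lower and 2 higher (by at most 0.13), and 1 neural marker was tested. Lbx1, a factor of migrating muscle progenitors, was at 1.60 to 2.76 TPM in E9.25 WT and 0.203 to 0.692 in E9.25 Gli3-/-, a difference of −1.20 ± 0.22 (SE), and it too passed the filter through WT alone. The neural marker Tubb3 was at 5.52 to 12.2 and 2.32 to 4.49 TPM, a difference of −1.15 ± 0.27 (SE). The ridge marker Fgf8 was at 40.3 to 71.1 and 17.6 to 36.6 TPM, a difference of −1.31 ± 0.27 (SE). In all 3 the groups did not overlap and the test did not pass (limma adjusted p = 0.0800, 0.149 and 0.130), and the part of these tissues in the Gja5 difference was not tested. The 6 blood markers summed to 6911 to 23432 TPM at E9.25 and to 10102 to 33310 at E10.5, and 0 of 6 passed in either genotype comparison in limma, adjusted or unadjusted.

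**Figure D5:**
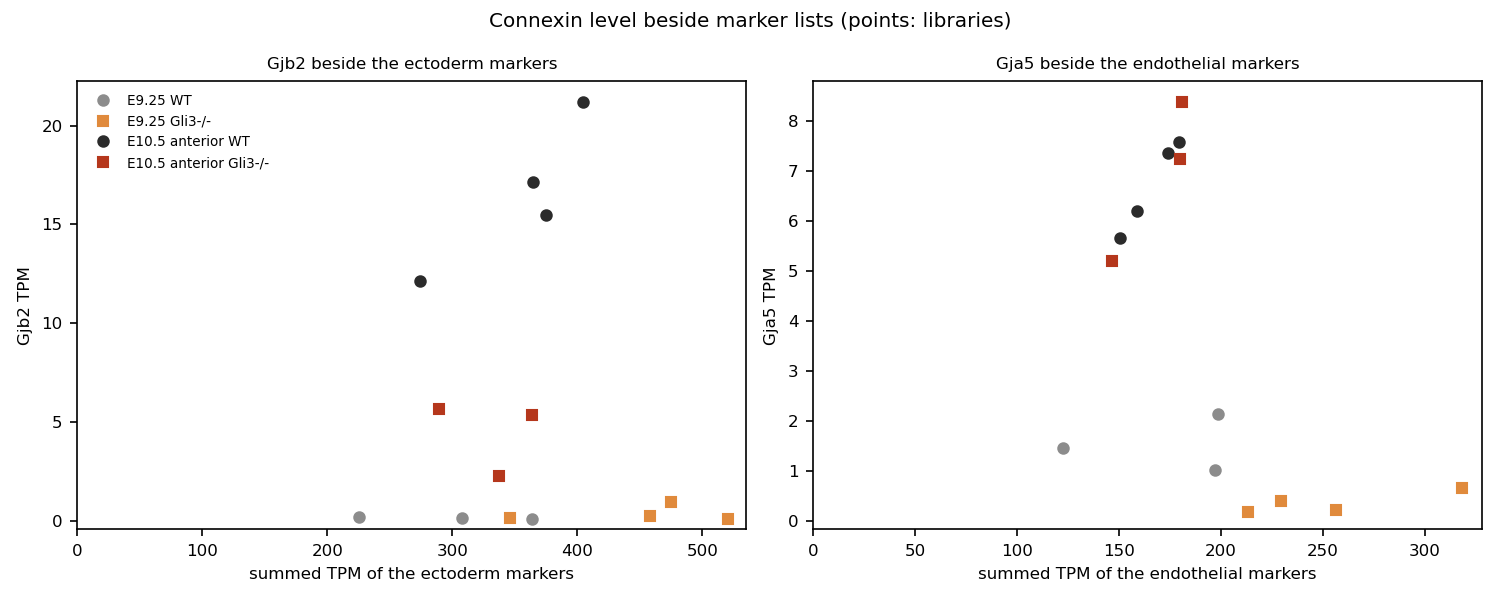
Gjb2 TPM beside the summed TPM of 15 ectoderm markers (left) and Gja5 TPM beside that of 11 endothelial markers (right), 1 point per library. At a like ectoderm sum the E10.5 anterior Gli3-/- libraries have a Gjb2 TPM of 2.26 to 5.68 against 12.1 to 21.2 in E10.5 anterior WT, and E9.25 Gli3-/- libraries have the lowest Gja5 TPM with endothelial sums of 213 to 318.

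Across the 14 libraries, which share the 4 groups and with them the stage differences, Gjb2 and Gjb6 were the most alike of the member pairs, with a Pearson's r of 0.97 on log2(TPM + 1) and 0.59 once each group mean was removed. By the latter measure Gja1 and Gjb5, at 0.72, were the most alike, while their r over the libraries was −0.30. Gja4 and Gja5 had 0.79 and 0.64, Gjb2 and Gjb5 −0.91 and −0.24, and Gja1 and Gja4 0.09 and −0.72. Among 16368 genes the nearest to each member were Cab39, Fam49a and Celsr2 for Gja1 (r of 0.97, 0.95 and 0.93), Zfp532, Arhgap28 and Cblb for Gjc1 (0.99, 0.98 and 0.98), and Tssc4, Brk1 and Limd2 for Gja4 (0.90, 0.89 and 0.89). For Gja5 they were Lbx1, a and Nnat (0.99, 0.99 and 0.98), for Gja3 Hoxd11, Nrtn and Fbln5 (0.97, 0.97 and 0.97), and for Gjb2 Barx2, Aass and Serpini1 (0.98, 0.98 and 0.98). For Gjb6 they were Ptprz1, Gdf5 and Krt9 (0.98, 0.98 and 0.98), and for Gjb5 Fam185a, Them6 and Prdm1 (0.92, 0.92 and 0.92). With the group means removed the nearest genes were Lmo7, Cab39 and 2700049A03Rik for Gja1, Ranbp9, Hmga2 and Osbp for Gjc1, Tubg2, Cotl1 and Abhd8 for Gja4, Gm15593, Yif1a and Cdk4 for Gja5, Gm11814, 2310039H08Rik and Fam83f for Gja3, Lamtor5, Apoc1 and Mir6955 for Gjb2, Agtr2, Krt9 and Myf5 for Gjb6 and Fan1, Rbpsuh-rs3 and Kctd18 for Gjb5, with r from 0.82 for Gjb2 to 0.97 for Gjc1 and Gja1. Cab39 for Gja1 and Krt9 for Gjb6 were in both sets.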

How the data were processed

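RNA from 14 pools of forelimb buds was prepared with NEBNext Ultra II and sequenced as single reads of 100 bases. For their own tests the authors used HISAT2 and DESeq2. The tables used here hold no counts, so a count model was not run. The program that wrote them and its annotation are not given in the sources used here, and mm10 is the build named by the submitters' processing notes. Coverage as deposited is a signal of mean read depth over a gene. FPKM as deposited is scaled for depth and length, and the TPM deposited by the authors is FPKM brought to a common total. TPM was the measure used.

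Table lines of the same gene ID were added up. The tests were limma 3.58.1 in R 4.3.3, with a variance trend, on log2 of TPM plus 1, over genes reaching a TPM of 1 in 3 or more of the libraries in the comparison. Benjamini-Hochberg adjustment covered every gene tested, the tests had no preset direction, the threshold was 0.05 and intervals are at 95%. Read numbers were inferred by setting coverage against FPKM within each library. The procedure was tested on simulated data. Other tables were made in Python 3.11.15 with pandas 2.3.3.

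The members, the gene lists and the tests were chosen with earlier results of these data known. Genes named are the members, the other connexins and pannexins, partners and markers past the threshold between genotypes or below a TPM of 1 throughout, flanking genes, and the 3 genes most like each member, some of which are not reported here. Other settings were 0.1 as pseudocount, all genes kept, a TPM minimum of 5, limma without its trend, median-of-ratios size factors, FPKM, a replicate block, 1 model for all 14 libraries, and each library left out. Coverage per estimated read was a setting added after seeing the data.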

Additional observations from a re-analysis of the deposited data

Results flagged for a closer look

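Gjb6 stood out in Gli3-/- replicate 4 at E9.25, with a TPM of 0.0653, while the other 3 libraries of the group were listed at 0. The value stands for 1.91 estimated reads per kilobase. Among 16 sets of values examined for such gaps (8 members in the groups of 4 libraries), 1 stood out. Chance gives about 1 in 20, but that rate is for values without ties. With the other 3 values at 0, any value above 0 stands out whatever its size.

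The genotype difference of Gjb2 on the log2(TPM + 1) scale was not the same at both stages. Its E9.25 values were all under a TPM of 1, where this scale leaves little room for a difference. With a pseudocount of 0.1 the interaction did not pass. The interaction of stage and genotype was −1.94 on the log2(TPM + 1) scale, with Gjb2 lower in all 3 E10.5 anterior Gli3-/- libraries than in the 4 WT libraries and overlapping at E9.25. Because TPM chose the members, this describes the pattern that brought Gjb2 into view.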

How the results depend on the processing

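Of 596 refits of single members, 527 kept direction and side of the threshold, 40 lost the call, 11 gained it and 18 changed sign; the cause was not tested. The number of members that passed at E9.25 was 1 in a single model of all 14 libraries and 0 otherwise. At E10.5 it was 1 without the filter, with a TPM minimum of 5 or with the block, and 1 to 2 with a library left out. Across stages the minimum of 5 left 3 members in each genotype (4 connexins in Gli3-/-), and leaving out a library in Gli3-/- gave 1 to 6 (connexins 1 to 7), in part because fewer genes passed the filter. For the interaction it was 0 with pseudocount 0.1, 2 without the trend, with FPKM or with coverage (added after seeing the data), and 1 to 3 with a library left out. With Spearman's rho, 1 of the 3 nearest genes was shared for Gja1, Gjb2, Gjb5, Gjb6 and Gjc1 and 0 for Gja5.

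Median-of-ratios factors changed the sign for Gjb5 (−0.012) and Panx1 (−0.036) at E9.25, Gja4 at E10.5 (0.025), Gja1 between stages in WT (−0.10), and Gjc1 (0.088) in the interaction; coverage did so for Gja5 at E10.5 (−0.0035). With a library left out, signs changed at E9.25 for Gja1 (−0.25 to 0.14), Gja4 (−0.56 to 0.018) and Gjb5 (−0.012 to 0.33), at E10.5 for Gja4 (−0.24 to 0.19) and Gja5 (−0.10 to 0.20), and in the interaction for Gja1 (−0.080 to 0.30), Gja4 (−0.020 to 0.56) and Panx1 (−0.029 to 0.21).

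Over all genes, 20 passed at E9.25 against 0 to 1185 in other settings and 2 to 196 with a library left out. At E10.5 it was 747 against 164 to 842 and 301 to 680, in WT between stages 7520 against 4699 to 8400 and 5139 to 8305, in Gli3-/- 3853 against 2876 to 4629 and 2129 to 4326, and for the interaction 348 against 138 to 433 and 150 to 1433.

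By the numbers in the sample titles, same-number correlations of deviations were −0.18, −0.15 and −0.17 at E9.25 and 0.12, −0.12 and −0.16 at E10.5. At E9.25 libraries of the same number were thus not alike. The paper's reporting summary numbers the E10.5 mutant libraries 1 higher than the titles do. By that numbering the E10.5 correlations were 0.05, 0.29 and 0.17. Which numbering holds is not known, so pairing at E10.5 was not settled. The replicate block used the title numbers. With the replicate block 66 genes passed at E9.25, 164 at E10.5, 4699 and 3824 between stages and 138 in the interaction, and 1 member passed at E10.5.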
